A study of Homo sapiens with 4 samples.

Results

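The genes described here are those of MHC class II antigen presentation with their coactivator CIITA, taken by gene symbol from the deposited count table. All 10 symbols were present, among 58735 genes in the table. Expression was measured by RNA-seq in SUP-M2, an established human ALK-positive anaplastic large cell lymphoma line, that is, a tumour of T cell origin that carries CD30 on its surface. Of the 4 libraries, 2 carried short hairpin RNA against GOLM1 (shGOLM1, replicates 1 and 2) and 2 carried a scrambled hairpin (shscramble, replicates 1 and 2). Titles name hairpins, while the genotype field speaks of a knockout. All libraries come from 1 cell line, and the labels do not say whether replicates were separate cultures or carried the same hairpin, so any p-value here reflects how far these libraries differ from one another, possibly for technical reasons.

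MHC class II molecules are pairs of an alpha and a beta chain that carry peptides from the endosomes to the cell surface, where CD4+ T cells read them. CD74, the invariant chain, holds newly made pairs and blocks their groove until proteases such as cathepsin S trim it, and HLA-DM then exchanges the remaining fragment for a peptide, while HLA-DO restrains HLA-DM. CIITA does not bind DNA itself. It docks on the factors RFX, NF-Y and CREB at the promoters of these genes and is regarded as the master regulator of the family. Activated human T cells express class II, unlike those of the mouse.

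Library totals were 30889185 and 27544171 counts in shGOLM1 and 31972153 and 31608073 counts in shscramble. The targeted gene, GOLM1, had 2414 and 1583 counts in shGOLM1, against 6907 and 7090 in shscramble. Scaled to a common library total with TMM factors, it was at 69.55 and 69.48 CPM in shGOLM1, against 211.5 and 213 CPM in shscramble. The library labelled shGOLM1 replicate 2 stands apart from the other 3, with 0.456% of its counts from mitochondrially encoded genes, against 1.95% in shGOLM1 replicate 1 and 2.38% and 2.24% in shscramble, so each result is given for both shGOLM1 libraries. Of 12 T cell and lymphoma markers, 8 were at a mean of at least 1 CPM (counts scaled to a common library total, with TMM factors), among them CD4, PTPRC, IL2RA, ALK and TNFRSF8, which encodes CD30. CD3G had 0 counts in every library and CD3E had 1 count in shscramble replicate 1 and 0 in the other libraries, while CD3D was at 0.547 and 6.23 CPM in shGOLM1 and 1.84 and 1.35 CPM in shscramble. Summed CPM of the 12 was 1760 and 1826 in shGOLM1 and 1826 and 1787 in shscramble. TNFRSF8 was at 538 and 88.3 CPM in shGOLM1, against 634 and 614 CPM in shscramble, so shGOLM1 replicate 2 was also the low library for the marker that defines the tumour. Other cells that carry class II were looked for by their markers. None of 6 B cell markers reached 1 CPM, with MS4A1, CD79B and CR2 at 0 everywhere and a summed CPM of 0.317 and 0.658 in shGOLM1 and 0.245 and 0.18 in shscramble. Of 9 dendritic cell and macrophage markers, ITGAX and CSF1R reached 1 CPM, with a summed CPM of 317 and 262.5 in shGOLM1 and 236 and 242 in shscramble. CD1C was at 0 in every library, and CD14 did not exceed 0.674 CPM. ITGAX was at 6.19 and 31.1 CPM in shGOLM1, against 0.551 and 0.481 CPM in shscramble, and rose by DESeq2 (log2 fold change 5.20, adjusted p = 4.2e-07) without passing edgeR (adjusted p = 0.42). ITGAM, also higher without overlap, had 10 and 13 counts in shGOLM1 and 2 and 0 in shscramble. The part of these markers in the class II values was not tested.

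Promoters are shown because CIITA reaches class II genes through shared promoter elements. HLA-DMA and HLA-DMB, which encode partner chains, also gave a count ratio without overlap between the groups. RefSeq promoter windows (GRCh38.p14, 250 bases before to 50 after an annotated start) matched 8 of the 10 members, with 9 windows in all. CCAAT, the core letters that NF-Y recognises, was searched on both strands. It stood in a window of 7 of the 8 members, all but HLA-DPA1, and in 34.6% of all 34943 windows. The longest runs of letters shared by windows of at least 3 members, on either strand, had 10 letters and were found from the members' own windows. AACCAATCAG, which contains CCAAT, stood in HLA-DMA, HLA-DRB1 and HLA-DQB1 and in 0.286% of all windows. ACTGATGATG stood in HLA-DMA, HLA-DMB and HLA-DRB1 and in 0.0859% of all windows. Both runs stood together in 2 windows of the 34943, those of HLA-DMA and HLA-DRB1. The 250 bases before the start are printed 5′ to 3′ on the gene's strand, with CCAAT, both runs and their reverse complements in capitals, for the HLA-DM pair, for HLA-DRB1, which shares both runs with HLA-DMA, and for CD74, the member with the most counts.
HLA-DMB (chr6:32941029-32941278, minus strand): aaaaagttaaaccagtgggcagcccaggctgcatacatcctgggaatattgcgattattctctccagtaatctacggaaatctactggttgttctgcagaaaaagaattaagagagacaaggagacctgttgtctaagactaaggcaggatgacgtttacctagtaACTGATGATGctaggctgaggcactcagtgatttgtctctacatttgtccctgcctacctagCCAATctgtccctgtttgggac
HLA-DMA (chr6:32953098-32953347, minus strand): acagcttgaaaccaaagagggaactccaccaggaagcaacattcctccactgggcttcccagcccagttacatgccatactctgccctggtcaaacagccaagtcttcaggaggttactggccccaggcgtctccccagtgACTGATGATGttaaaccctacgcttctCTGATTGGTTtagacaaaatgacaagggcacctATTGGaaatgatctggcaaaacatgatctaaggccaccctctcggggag
HLA-DRB1 (chr6:32589849-32590098, minus strand): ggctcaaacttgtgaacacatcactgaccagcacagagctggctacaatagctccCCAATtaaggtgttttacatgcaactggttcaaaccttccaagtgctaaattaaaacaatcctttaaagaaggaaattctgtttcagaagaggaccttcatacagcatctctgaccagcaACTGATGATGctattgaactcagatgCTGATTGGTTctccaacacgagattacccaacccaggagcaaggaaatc
CD74 (chr5:150412911-150413160, minus strand): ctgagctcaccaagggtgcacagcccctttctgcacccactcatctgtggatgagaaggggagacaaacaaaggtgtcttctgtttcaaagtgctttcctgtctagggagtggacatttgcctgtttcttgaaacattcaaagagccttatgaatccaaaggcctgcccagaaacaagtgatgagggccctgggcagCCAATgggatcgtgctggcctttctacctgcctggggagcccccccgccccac
The run ACTGATGATG begins 84 bases before the start in HLA-DMB, 109 in HLA-DMA and 75 in HLA-DRB1. A match describes letters of the reference, not binding in these cells.

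The lymphoma cells held abundant class II RNA in both groups. In bulk RNA, fewer cells with class II and less class II RNA per cell cannot be told apart. The 10 members took 0.249% and 0.324% of all counts in shGOLM1 and 0.259% and 0.246% in shscramble. CD74 and HLA-DRA together made up 81.9% and 85.4% of the members' counts in shGOLM1, against 80.5% and 80.6% in shscramble. Levels are compared between genes only per length, on the authors' deposited FPKM (counts scaled by library and by the deposited gene length). On that scale CD74 averaged 618 ± 242 FPKM in shGOLM1 and 444 ± 18.4 FPKM in shscramble (SD, n = 2 each), which ranked it 62 and 66 of 19951 coding genes. HLA-DRA averaged 425 ± 221 FPKM in shGOLM1 and 415 ± 40.7 FPKM in shscramble, at ranks 96 and 73. In shscramble the order then ran through HLA-DPA1 at 44.9 FPKM, HLA-DMA at 19.7, HLA-DRB1 at 17.2, HLA-DPB1 at 15.7, CIITA at 3.72, HLA-DMB at 3.65, HLA-DQB1 at 0.5 and HLA-DQA1 at 0.0608. In that order CD74 and HLA-DRA overlapped between the shscramble libraries, as did HLA-DMA, HLA-DRB1 and HLA-DPB1 as neighbours, and CIITA and HLA-DMB. HLA-DP and HLA-DR RNA was therefore present throughout, while both HLA-DQ chains were low, at 12 to 138 counts per library. The deposited length of CIITA, 20757 bases, sums the exons of all its transcripts, so its FPKM is low for its count. Deposited lengths of the other members ran from 1229 bases for HLA-DRB1 to 6927 for HLA-DQA1. The order given above depends on these lengths.

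**Figure D1:**
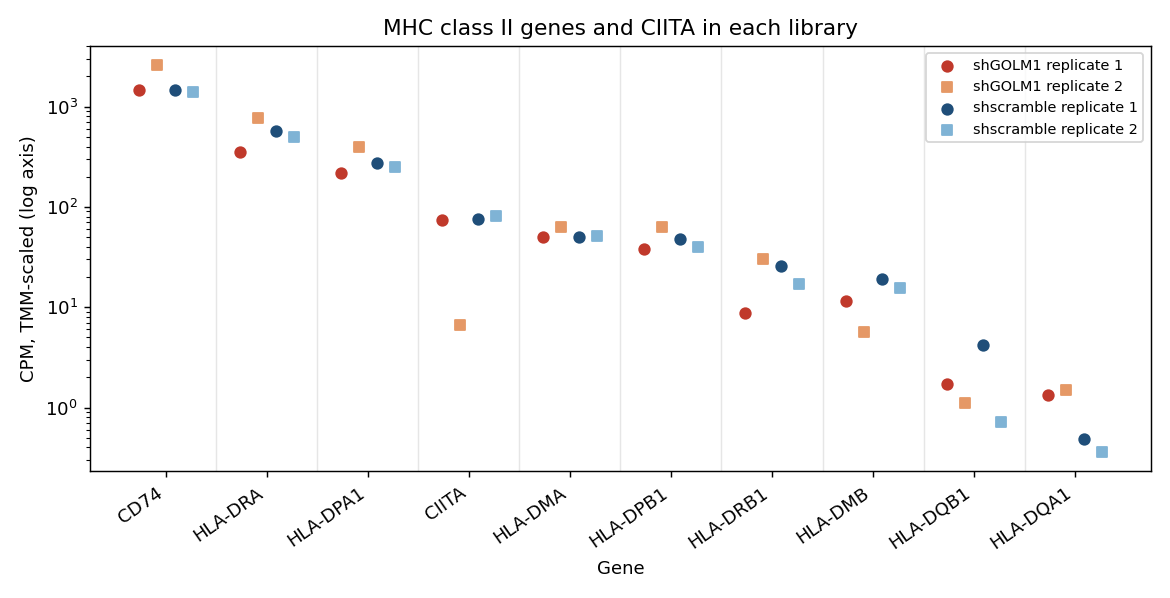
CPM, scaled by TMM factors and drawn on a log axis, of each member in every library, shGOLM1 libraries left of shscramble libraries and genes ordered by their shscramble mean. CIITA in shGOLM1 replicate 2 lies at 6.67 CPM, far below the other 3 libraries at 74.4 to 80.5 CPM, while CD74 and HLA-DRA of the same library are the highest of the 4.

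CIITA (ENSG00000179583, chromosome 16, 10866222 to 10943021, GRCh38) was the member with the widest spread between the shGOLM1 libraries. It had 2583 and 152 counts in shGOLM1 and 2461 and 2679 counts in shscramble, which is 74.4 and 6.67 CPM against 75.4 and 80.5 CPM. shGOLM1 replicate 1 thus lay next to the shscramble libraries, and replicate 2 was 11.7-fold below their mean. The 152 counts carry a 95% exact Poisson interval of 129 to 178 counts, for counting error only. Over the groups the log2 fold change was -0.94 (SE 1.10), and neither edgeR's quasi-likelihood test (adjusted p = 0.725) nor DESeq2 (adjusted p = 0.727) called it. With shGOLM1 replicate 2 alone against shscramble it was -3.59 (edgeR adjusted p = 1.78e-11), and with replicate 1 alone -0.08 (edgeR adjusted p = 0.597). By TMM-scaled CPM both shGOLM1 libraries were below both shscramble libraries, but by library totals alone the groups overlapped. The gene DEXI overlaps CIITA by 13570 bases on the opposite strand with 58 to 147 counts per library, and reads in their overlap are uncertain, as no source used here gives the strand setting of the counter. Of the 50-base words of CIITA 11.5% stand in other genes, mainly AC133065.3, which had 0 counts in every library.

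CD74 and the HLA-DR and HLA-DP chains were not low in that library, and HLA-DQB1 lay between its shscramble values and below their mean. CD74 (ENSG00000019582, chromosome 5, 150401637 to 150412929) had 50754 and 58852 counts in shGOLM1 and 47930 and 46104 in shscramble, or 1462 and 2583 CPM against 1468 and 1385 CPM. It was highest in the library with the least CIITA, at 1.81-fold the shscramble mean, while by TMM-scaled CPM replicate 1 lay within the shscramble range. By library totals alone both shGOLM1 libraries were above both shscramble libraries, at 1643 and 2137 CPM in shGOLM1, against 1499 and 1459 CPM in shscramble. HLA-DRA (ENSG00000204287, chromosome 6, 32439842 to 32445046), the single alpha chain of HLA-DR, was at 353 and 765 CPM in shGOLM1, against 573 and 499 CPM in shscramble. The shGOLM1 libraries lay on opposite sides of the control libraries, and the groups overlapped. Per count of CIITA there were 28.8 and 586 counts of CD74 and the class II chains in shGOLM1, against 32.6 and 28.1 in shscramble, a ratio that needs no scaling between libraries.

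HLA-DRB1 (chromosome 6, 32578769 to 32589848), the main beta chain of HLA-DR, followed the order of its partner with a wider swing. By TMM-scaled CPM it was at 8.7 and 30.3 CPM in shGOLM1 and 25.7 and 17 CPM in shscramble. With library totals alone, replicate 2 of shGOLM1 lay between the shscramble libraries, at 25.1 CPM against 26.2 and 17.9 CPM. The shscramble libraries themselves differed for this gene, with 839 and 567 counts. HLA-DRB1 reached 2.46 and 3.97 counts per 100 HLA-DRA counts in shGOLM1, against 4.48 and 3.41 in shscramble. HLA-DRB genes are highly variable between people and similar to each other. In the transcripts of HLA-DRB1, 9.92% of the 50-base words stand in other genes, mainly HLA-DRB5. The counts of single HLA-DRB genes are therefore uncertain. HLA-DRB5 had the same order by TMM-scaled CPM, at 7.49 and 19.4 CPM in shGOLM1 and 15 and 13.9 CPM in shscramble. No 50-base word of HLA-DRA, CD74 or HLA-DPA1 stands in another gene.

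HLA-DPA1 (chromosome 6, 33064569 to 33080775) was at 216 and 399 CPM in shGOLM1 and 272 and 249 CPM in shscramble, and HLA-DPB1 (chromosome 6, 33075926 to 33087201) at 37.9 and 63.6 CPM against 48.4 and 39.9 CPM. By TMM-scaled CPM both chains were lowest in shGOLM1 replicate 1 and highest in replicate 2. By library totals alone HLA-DPB1 in replicate 1 lay between the shscramble libraries, at 42.57 CPM against 49.39 and 42.05 CPM. HLA-DPB1 gave 17.5 and 16 counts per 100 HLA-DPA1 counts in shGOLM1, against 17.8 and 16 in shscramble, the steadiest ratio of the 4 chain pairs. The genes overlap by 4850 bases on opposite strands, so some of their reads cannot be assigned with certainty.

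The HLA-DQ chains had few counts in every library. HLA-DQA1 (chromosome 6, 32628179 to 32647062) had 46 and 34 counts in shGOLM1 and 16 and 12 in shscramble, or 1.32 and 1.49 CPM against 0.49 and 0.36 CPM. Of the 10 members it had the largest positive log2 fold change, 1.72 (SE 0.62), and was the only one with an unadjusted p under 0.05 in edgeR (unadjusted p = 0.0449, adjusted p = 0.421), where 11.8% of all genes tested had one, with both shGOLM1 libraries above both shscramble libraries. Words of 50 bases shared with HLA-DQA2 make up 2.07% of its transcripts. HLA-DQB1 (chromosome 6, 32659467 to 32668383) had 59 and 25 counts in shGOLM1 and 138 and 24 in shscramble. Its control libraries differed more from each other than the groups did: 85.2% of the shscramble counts came from replicate 1 (95% exact binomial interval 78.8% to 90.3%, counting error only), where replicate 1 holds 50.3% of all shscramble counts.

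HLA-DM exchanges peptides, and the ratio of its chains did not overlap between the groups. HLA-DMB (ENSG00000242574, chromosome 6, 32934629 to 32941070) had 396 and 128 counts in shGOLM1 and 618 and 512 in shscramble, or 11.4 and 5.62 CPM against 18.9 and 15.4 CPM. Both shGOLM1 libraries were below both shscramble libraries, and replicate 2 was the lower of them, at 3.05-fold below the shscramble mean. Over both libraries its log2 fold change of -1.01 (SE 0.50) did not pass edgeR (adjusted p = 0.481). With 1 shGOLM1 library alone against shscramble, the log2 fold change of HLA-DMB was -0.605 for replicate 1 and -1.66 for replicate 2. Such fits compare libraries, not conditions. HLA-DMA (chromosome 6, 32948613 to 32969094) was at 50.3 and 62.7 CPM in shGOLM1 and 50.1 and 50.8 CPM in shscramble. Its log2 fold change in the same fits was -0.019 for replicate 1 and 0.27 for replicate 2. HLA-DMB thus gave 22.7 and 8.96 counts per 100 HLA-DMA counts in shGOLM1, against 37.8 and 30.3 in shscramble, with no overlap between the groups. Lack of overlap was common, at 51.7% of all single genes tested. Other chain pairs also gave ratios without overlap: HLA-DQB1 per HLA-DQA1 count was 1.28 and 0.735 in shGOLM1, against 8.62 and 2.0 in shscramble, and HLA-DOB per 100 HLA-DOA counts was 1.73 and 1.54 in shGOLM1, against 0.575 and 1.35 in shscramble. The annotated gene AL645941.2 overlaps HLA-DMB and HLA-DMA on the same strand and had 0 counts in every library. It shares 8.0% of the 50-base words of HLA-DMB and 4.52% of those of HLA-DMA. BRD2 overlaps HLA-DMA by 435 bases on the opposite strand, with 7311 to 10034 counts per library. Reads in that overlap are uncertain, as the strand setting is not known, and their part in the HLA-DMA counts was not tested. With 2 libraries a group the smallest p an exact permutation test of such a ratio can give is 0.333. The promoter windows of HLA-DMA and HLA-DMB, printed above, share the run ACTGATGATG. HLA-DOA, which encodes the alpha chain of HLA-DO and is not among the 10 members, was at 49.9 and 25.6 CPM in shGOLM1 and 58.6 and 55.7 CPM in shscramble, the same direction and order as HLA-DMB. Its partner HLA-DOB was under 1 CPM in every library. Of 5 other class II genes listed, edgeR called 0, and 2 were lower in shGOLM1 without overlap (HLA-DOA and HLA-DQB2) and 0 higher, beside 26.5% of all genes tested lower and 51.7% in either direction.

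**Figure D2:**
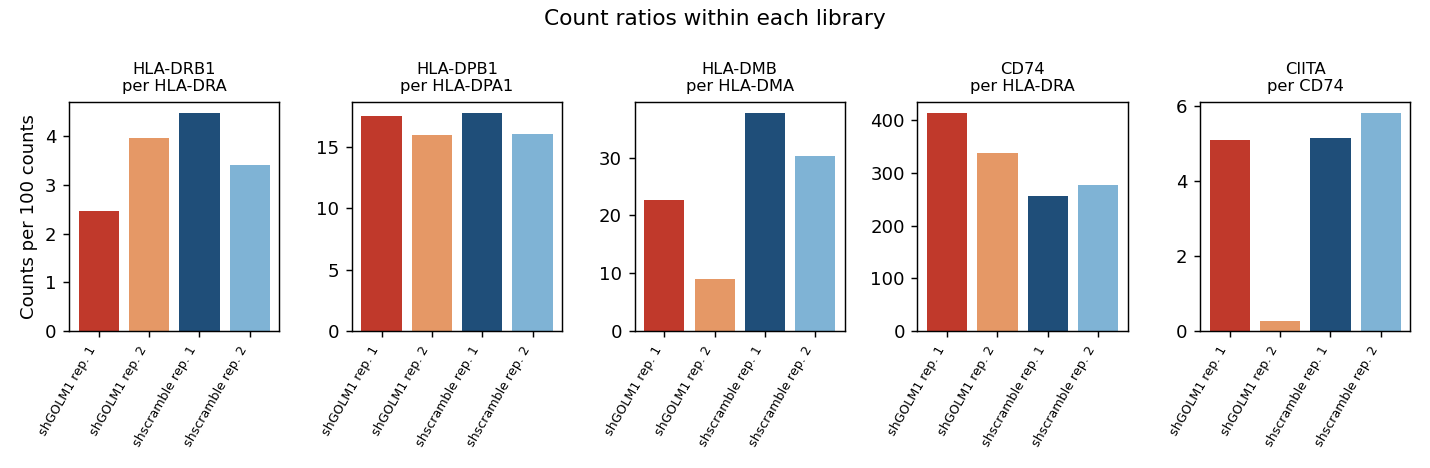
Counts of one gene per 100 counts of another within each library, for partner chains, for CD74 against HLA-DRA and for CIITA against CD74; each bar is 1 library, shGOLM1 left of shscramble, and each panel has its own axis from 0. HLA-DPB1 per HLA-DPA1 stays between 16 and 17.8 in all 4 libraries, HLA-DMB per HLA-DMA is lower in both shGOLM1 libraries, and CIITA per CD74 drops to 0.258 in shGOLM1 replicate 2.

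CD74 gave 4.14 and 3.38 counts per HLA-DRA count in shGOLM1, against 2.56 and 2.78 in shscramble, a higher ratio in both shGOLM1 libraries. The libraries reached it differently: by TMM-scaled CPM, HLA-DRA in replicate 1 was below its shscramble values and CD74 within them (above them by library totals), and in replicate 2 both were above. HLA-DPA1 per 100 HLA-DRA counts was 61.3 and 52.1 in shGOLM1 and 47.4 and 49.9 in shscramble, also without overlap. Among all single genes tested, 51.7% did not overlap between groups. The smallest p that an exact permutation test of such a ratio can give is 0.333.

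Over all 10 members edgeR called 0, where it called 0.0% of 14166 genes tested, and the members' adjusted p ran from 0.421 to 0.967. DESeq2 also called 0 members, where it called 3.76% of genes, 3.42% higher and 0.339% lower. All 10 passed the filter on low counts. By TMM-scaled CPM the groups did not overlap for 1 member higher in shGOLM1 (HLA-DQA1) and 2 lower (CIITA and HLA-DMB), where 25.2% of all genes tested were higher and 26.5% lower without overlap, 51.7% in all. The median log2 fold change was 0.11 over the members and 0.05 over all genes tested. The 2 shGOLM1 libraries went in opposite directions from the shscramble mean for 5 members, HLA-DRA, HLA-DRB1, HLA-DPA1, HLA-DPB1 and HLA-DMA, although HLA-DMA lay at the shscramble mean in replicate 1. The members' median log2 difference was -0.14 in replicate 1 and 0.52 in replicate 2, beside 0.00 and -0.04 over all genes.

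Each shGOLM1 library was also set alone against shscramble. Such a fit assumes that 1 library varies as much as the control pair does, and it compares libraries, not conditions. In replicate 1 edgeR called 0 members higher and 3 lower (HLA-DRA, HLA-DRB1 and HLA-DMB), where it called 20.4% of genes higher and 24.1% lower (44.5% in all). In replicate 2 it called 6 higher (CD74, HLA-DRA, HLA-DRB1, HLA-DPA1, HLA-DPB1 and HLA-DQA1) and 2 lower (CIITA and HLA-DMB), where it called 33.3% of genes higher and 34.1% lower (67.4% in all). HLA-DRA and HLA-DRB1 passed in opposite directions, at log2 fold changes of -0.62 and -1.31 in replicate 1 and 0.46 and 0.46 in replicate 2, with edgeR adjusted p of 0.000377 and 2.5e-05 in replicate 1 and 0.00261 and 0.0444 in replicate 2.

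**Figure D3:**
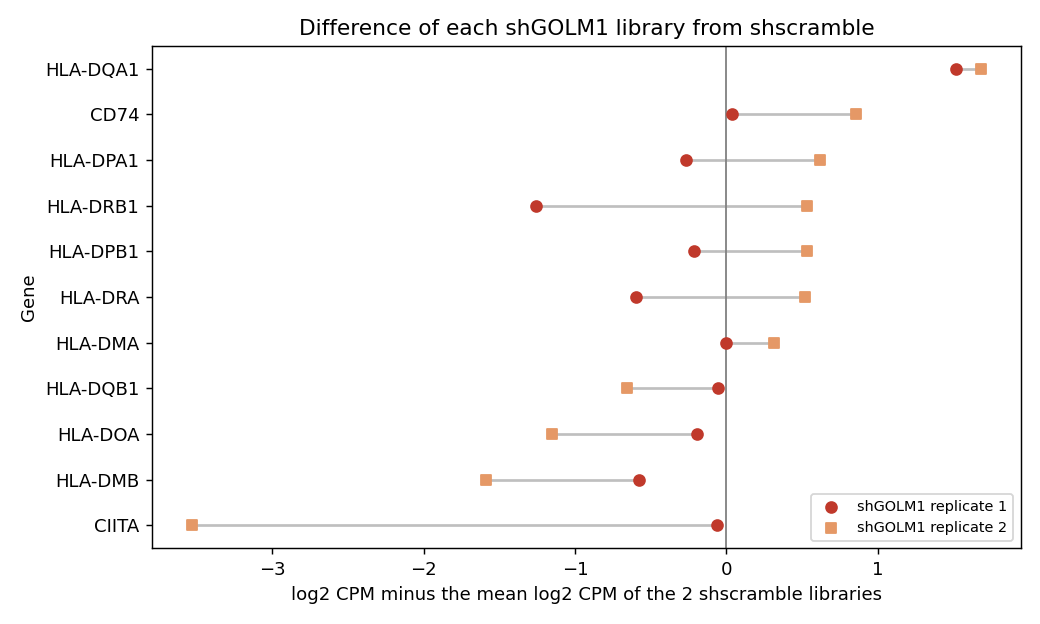
Difference in log2 CPM between each shGOLM1 library and the mean of the 2 shscramble libraries, for the 10 members and HLA-DOA, ordered by replicate 2; a grey line joins the libraries of a gene. CIITA, HLA-DMB and HLA-DOA lie to the left in replicate 2, while CD74 and the HLA-DR and HLA-DP chains lie to the right.

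In the 647 kb between the start of HLA-DRA and the end of HLA-DPB1, 5 coding genes outside the HLA-D family were at a mean of at least 1 CPM. TAP2, a subunit of the peptide transporter for class I, was at 74 and 24.1 CPM in shGOLM1 and 88.2 and 96.8 CPM in shscramble. Its neighbour TAP1, the other subunit, was at 359 and 324 CPM against 380 and 362 CPM. PSMB8, an immunoproteasome subunit, was at 134 and 147 CPM against 221 and 201 CPM, and PSMB9, another, at 93.3 and 110 CPM against 119 and 107 CPM. BRD2, a chromatin reader of the BET family, was at 211 and 440 CPM against 278 and 298 CPM. By TMM-scaled CPM, HLA-DQB2, TAP2, TAP1, PSMB8, HLA-DMB and HLA-DOA were below both shscramble libraries in shGOLM1 replicate 2. HLA-DMA and BRD2, which lie between HLA-DMB and HLA-DOA, were above both. The share of all genes below or above both in that library was not computed. By library totals alone HLA-DMA in that library lay between the shscramble libraries, at 51.9 CPM against 51.2 and 53.5 CPM.

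The other genes of the pathway were described over 6 lists of 45 genes, and edgeR called none of them in the 4-library comparison. Of 7 promoter factors that CIITA docks on, 3 were lower in shGOLM1 without overlap (RFXAP, RFX5 and NFYA) and 0 higher, beside 26.5% of all genes tested lower and 51.7% in either direction. RFXAP, an RFX subunit, was at 11 and 10.7 CPM in shGOLM1 and 19.8 and 19.9 CPM in shscramble, nearly equal within each group, and did not pass edgeR at a log2 fold change of -0.87 (SE 0.33, adjusted p = 0.423). RFX5, the DNA-binding subunit, was at 67.9 and 37.4 CPM in shGOLM1 and 85.1 and 87.5 CPM in shscramble. NFYB, a subunit of NF-Y, was at 14.5 and 48.5 CPM in shGOLM1 and 26.8 and 26 CPM in shscramble, on opposite sides. RFXANK, NFYC and CREB1 overlapped between groups.

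On the interferon gamma route, which induces CIITA in many cell types, 8 of 9 genes were tested, with 2 higher (JAK1 and IRF2) and 2 lower (JAK2 and SOCS1) without overlap, JAK2 not by library totals. That is near the 51.7% of all genes tested without overlap in either direction. SOCS1, the feedback inhibitor of JAK kinases, was at 62.5 and 26.2 CPM in shGOLM1, against 85.7 and 83.4 CPM in shscramble, and was lowest in the same library as CIITA. IRF1, a transcription factor that acts on the CIITA promoter, was highest in that library, at 11.2 and 41.2 CPM in shGOLM1 and 14 and 13.8 CPM in shscramble. IFNG, the cytokine itself, had 0 and 39 counts in shGOLM1 and 1 and 0 in shscramble, and did not pass the filter.

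Among 10 genes of peptide loading and turnover, 9 were tested, with 3 higher (CTSS, CTSD and IFI30) and 1 lower (LGMN) without overlap. Over all genes tested, 51.7% did not overlap in either direction. CTSD was at 30 and 39.7 CPM in shGOLM1 and 22.6 and 20.4 CPM in shscramble. CTSS had the largest log2 fold change of the 9. Cathepsin S is the protease that trims CD74 in professional antigen-presenting cells. CTSS was at 18.1 and 11.2 CPM in shGOLM1 and 1.19 and 1.2 CPM in shscramble, with 628 and 256 counts against 39 and 40. Both shGOLM1 libraries were far above the control pair, with a log2 fold change of 3.61 (SE 0.49). CTSS rose by DESeq2 (adjusted p = 4.64e-07) and did not pass edgeR (adjusted p = 0.42). The myeloid marker ITGAX was higher in the same libraries. CSF1R, the other such marker at a mean of at least 1 CPM, overlapped between groups. It was at 309 and 231 CPM in shGOLM1 and 234 and 241.5 CPM in shscramble. The part of both markers in the CTSS values was not tested. IFI30, which encodes a thiol reductase of the loading compartment, had 13 and 62 counts in shGOLM1 and 3 and 6 in shscramble. LGMN, an asparagine endopeptidase, was lower in both, at 3 and 9.17 CPM in shGOLM1 and 10.7 and 11.8 CPM in shscramble. CTSL overlapped between groups, and MARCH8, a ubiquitin ligase that can remove class II from the surface, is listed at 0 in every library.

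Of 6 genes known to repress or silence CIITA in other settings, 5 were tested. PRDM1 was the only one of these higher, and the other 4 were lower, all without overlap. Over all genes tested, 25.2% were higher and 26.5% lower without overlap, 51.7% in all. DNMT3A did not pass the filter, with 4 and 11 counts in shGOLM1 and 0 in both shscramble libraries. PRDM1 encodes BLIMP1, which represses CIITA in plasma cells. It was at 127 and 86.2 CPM in shGOLM1 and 31.1 and 31.3 CPM in shscramble, with a log2 fold change of 1.77 (SE 0.34) which passed DESeq2 (adjusted p = 0.0152) and not edgeR (adjusted p = 0.42). PRDM1 was the higher of the pair in shGOLM1 replicate 1, the library in which CIITA lay beside the control values. The part of PRDM1 in the CIITA values was not tested. ZBTB32, a zinc finger repressor that acts with BLIMP1, was at 34.7 and 8.25 CPM in shGOLM1 and 44.8 and 47.2 CPM in shscramble. DNMT1, the maintenance DNA methyltransferase, was at 329 and 210 CPM against 456 and 477 CPM.

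**Figure D4:**
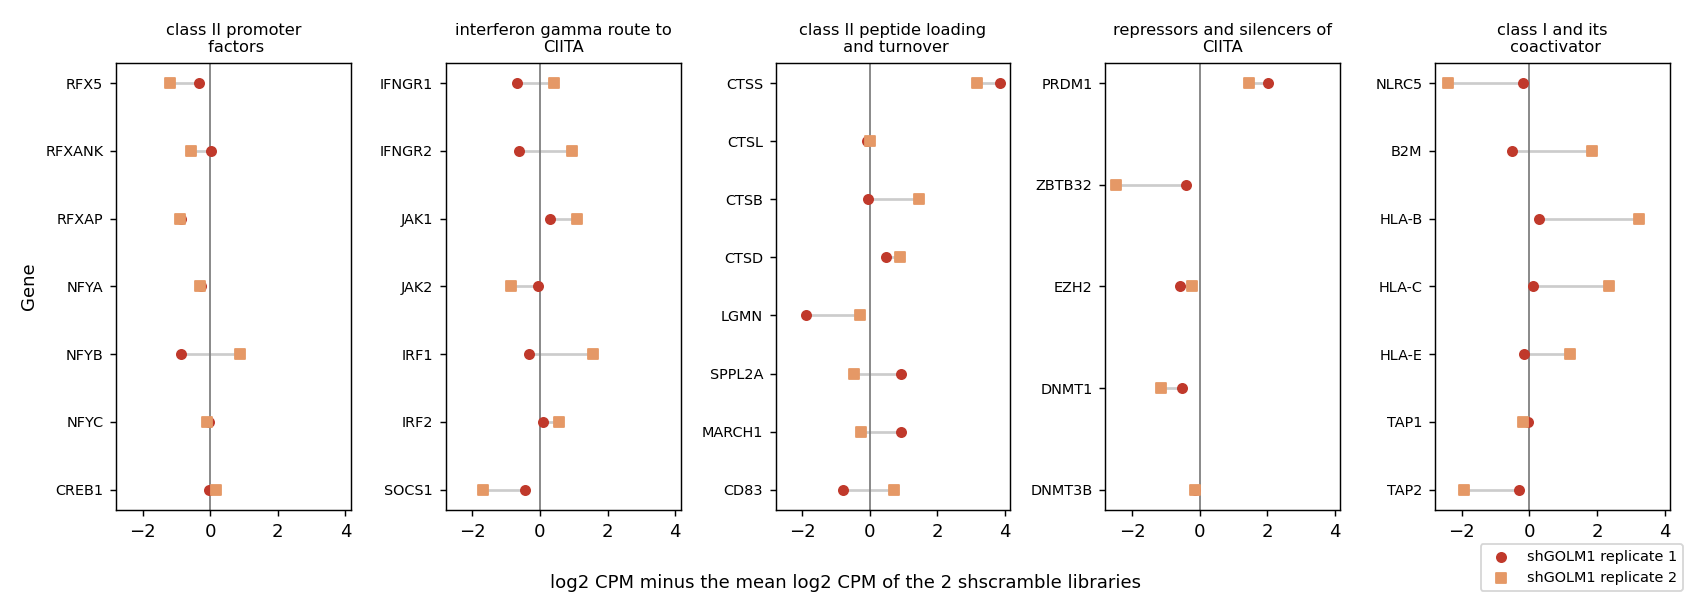
Difference in log2 CPM between each shGOLM1 library and the mean of the 2 shscramble libraries, for genes of 5 lists at a mean of at least 1 CPM, less those not reported. CTSS and PRDM1 lie to the right in both libraries, and NLRC5 lies to the left in replicate 2 while HLA-B, HLA-C and B2M lie to the right.

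Of 8 genes of class I presentation, 1 was higher without overlap (HLA-B) and 3 were lower (NLRC5, TAP1 and TAP2), near the 51.7% of all genes tested without overlap in either direction. By library totals TAP1 overlapped and HLA-C was higher without overlap. NLRC5, the coactivator of class I genes and a relative of CIITA, was at 30.7 and 6.67 CPM in shGOLM1 and 34.2 and 36.5 CPM in shscramble, so that, like CIITA, it was low in replicate 2. HLA-B was at 347 and 2704 CPM in shGOLM1 and 306 and 267 CPM in shscramble, so NLRC5 gave 8.84 and 0.247 counts per 100 HLA-B counts in shGOLM1, against 11.2 and 13.7 in shscramble. By TMM-scaled CPM, HLA-B and HLA-C in shGOLM1 replicate 2 lay 3.24 and 2.37 above the shscramble mean on the log2 scale. CD74, HLA-DRA, HLA-DRB1, HLA-DPA1 and HLA-DPB1 lay between 0.52 and 0.86 above it. The part of the coactivators in these values was not tested.

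The coding genes whose centred log2 CPM lay nearest to a member's over the 4 libraries, out of 10499 at a mean of at least 1 CPM, were found for each member by Euclidean distance, which describes 4 points only. For CIITA they included LRFN3 (distance 0.0838) and MOCS3 (0.126). LRFN3 was at 27.95 and 2.59 CPM in shGOLM1 and 29.4 and 29.5 CPM in shscramble. For CD74 they were TMEM53 (0.00921), AHI1 (0.0282) and CDT1 (0.0318), and for HLA-DRA RPL6 (0.0437), SCPEP1 (0.0465) and SUMO2 (0.0503). For HLA-DMB they were RPP25L (0.0413), MRPS12 (0.0802) and BAG1 (0.0848). HLA-DQB1 had no close match, with STIMATE nearest at 1.10.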

How the data were processed

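RNA-seq of 4 SUP-M2 libraries was analysed from 1 deposited table. No source used here names the aligner, the counter, their versions or the strand setting. Mouse builds are named in the submitters' processing notes, but all 58735 gene identifiers and coordinates equal human GENCODE 29 (GRCh38), from which 27 symbols turned into dates were restored.

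Raw read counts per gene were deposited by the authors, per the file headers. FPKM as deposited by the authors were used only to compare levels between genes; recomputed from the counts, they are scaled to 115% and 85.1% of the library totals in shGOLM1 and 103% and 106% in shscramble, not to the totals. The authors' group mean signal, log2 fold change and p-value columns, named per the file headers, were not printed.

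Differences were tested with the quasi-likelihood F test of edgeR 4.0.16 (R 4.3.3, limma 3.58.1), two-sided, with TMM factors, filterByExpr and Benjamini-Hochberg adjustment over 14166 genes at a threshold of 0.05. The SE is the size of the log2 fold change over the square root of F. Log2 CPM used a prior count of 2. The procedure was tested on simulated data. Runs of 50 letters shared between GENCODE 29 transcripts were counted per member. Settings tried were RLE factors, library totals, no filter, DESeq2 1.42.0, limma-voom, the replicate number as a block and leaving out each library. The text names all members, listed genes at a mean of at least 1 CPM and the 3 nearest coding genes per member. Genes below that level (HLA-DOB, IFNG, IFI30, MARCH8, DNMT3A and markers) were named after their values were seen. The members, lists and tests were chosen with earlier results of these data known. A few listed or nearest genes are not reported here. Intervals cover counting error only.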

Additional observations from a re-analysis of the deposited data

How the results depend on the processing

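None of the 10 members passed the test under RLE size factors, library totals alone, no filter, DESeq2, limma-voom or the replicate block. Members called without 1 library ranged from 0 to 8. Over all genes the count of calls was 0 in edgeR as reported, with 1668 genes at an unadjusted p under 0.05, and 0 with RLE size factors, library totals alone and limma-voom. It was 533 in DESeq2, 192 with no filter and 203 with the replicate block, and it ranged from 20 to 10290 with 1 library left out (10290 without shGOLM1 replicate 1, 6721 without shGOLM1 replicate 2, 22 without shscramble replicate 1 and 20 without shscramble replicate 2). The labels do not say that the replicate numbers pair libraries, and same-numbered libraries' deviations correlated at -0.10 across genes, so the block result is only a setting. HLA-DRA, at 0.06 over the groups, was at -0.11 with library totals alone, -0.027 with no filter, -0.020 in limma-voom and -0.041 with the replicate block. With 1 library left out its log2 fold change ran from -0.62 to 0.46. That of HLA-DRB1 ran from -1.31 to 0.46, HLA-DPA1 from -0.28 to 0.57, HLA-DPB1 from -0.24 to 0.48, HLA-DMA from -0.019 to 0.27 and HLA-DQB1 from -1.63 to 0.92, so their direction changes with the library left out. CIITA kept its sign, from -3.59 without shGOLM1 replicate 1 to -0.08 without replicate 2, as did HLA-DMB (-1.66 to -0.61), HLA-DQA1 (1.47 to 1.91) and CD74 (0.02 to 0.81). The cause was not tested. The median log2 fold change of all genes was 0.05 with TMM factors, 0.07 with RLE and -0.03 with library totals. Counts of 12 to 138 limit what can be said of the HLA-DQ chains.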
